A study of Mus musculus with 11 samples.

Results

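The 5 libraries described here were made from mouse liver tumour cell lines carrying TAZ-S89A, and they are 5 of the 11 libraries of the series. Their sample ID numbers fall into separate runs, and this is what divides them: 2 libraries belong to the second ID series and 3 to the first. The labels give the same tissue, mutation, RNA type and extraction kit for both. They do not say whether the libraries came from separate tumours, clones or cultures, nor what the second ID series stands for. Any p-value below is thus relative to library-to-library spread alone, and that spread may be technical. The other 6 libraries, 3 from YAP-S127A and 3 from YAP-5SA lines (YAP-S5A in the sample labels), serve only to give the scale. Polyadenylated RNA was sequenced throughout.

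TAZ, encoded by Wwtr1, and its relative YAP are coactivators that bind TEAD transcription factors. The Hippo kinases phosphorylate both, which holds them in the cytoplasm, and in TAZ-S89A a serine that they phosphorylate is changed to alanine, so that the protein stays active. Among the genes that YAP and TAZ switch on through TEAD are the secreted matricellular factors Ccn1 and Ccn2. In the liver, unrestrained YAP enlarges the organ, and both coactivators can give rise to tumours.

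The TEAD core motif GGAATG was searched on both strands of the promoters, each 300 bases long, in the RefSeq table for GRCm38.p6. Of 32851 promoters, 4817 (14.7%) hold it, and of the 16 listed YAP/TAZ targets with an entry, 8 do. Targets were counted by gene, with a match in any of its promoters, so the 2 shares are not directly comparable. The promoters of Ccn1, a standard readout of these coactivators, and of Crim1, the target with a match that was called higher in the second series, are shown with the match in capitals. The Ccn1 promoter lies on the minus strand at chr3:145649936-145650235, and that of Crim1 on the plus strand at chr17:78199998-78200297.
Ccn1: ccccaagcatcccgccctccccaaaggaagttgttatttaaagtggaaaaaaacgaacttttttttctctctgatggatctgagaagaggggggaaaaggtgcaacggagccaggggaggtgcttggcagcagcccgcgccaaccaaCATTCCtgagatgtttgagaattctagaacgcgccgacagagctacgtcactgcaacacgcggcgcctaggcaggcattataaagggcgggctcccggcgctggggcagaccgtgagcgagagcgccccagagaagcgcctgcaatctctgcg
Crim1: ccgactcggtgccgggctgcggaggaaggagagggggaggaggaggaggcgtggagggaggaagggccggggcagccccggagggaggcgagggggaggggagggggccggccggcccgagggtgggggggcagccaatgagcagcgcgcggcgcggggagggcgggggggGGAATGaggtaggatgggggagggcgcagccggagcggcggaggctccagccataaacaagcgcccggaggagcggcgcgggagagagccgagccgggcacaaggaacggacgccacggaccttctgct
The first base of the match lies at -103 from the start site in Ccn1, where the motif reads CATTCC, and at -79 in Crim1. A match is a run of letters and does not show that TEAD binds there.

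Total counts were 20246736 and 20071144 in the second series and between 35819107 and 42294516 in the first. The libraries within the second series were close to each other: the relative spread beyond counting error was 0.0273, and 337 of 15794 genes differed over 2-fold between them. Their counts still differed by more than sampling noise, with a chi-square of 2.01 per degree of freedom, so they were kept as 2 libraries. In the first series the spread was 0.177 over the 3 libraries but 0.0433 over libraries 1 and 2, from which library 3 stood apart. Markers of differentiated hepatocytes were nearly absent from all 5 libraries. Of 24 such markers 15 did not pass the low-count filter, and Serpina1a and Ahsg had no counts, so the labelled tissue is the origin of the lines rather than a hepatocyte profile. Most of the summed level of the hepatocyte list came from Rbp4, a plasma retinol carrier, and the sum was 44.5 and 42.7 CPM (counts scaled to library size) in the second series and between 27.9 and 34.9 CPM in the first. The haemoglobin genes, Emcn, Lyve1, Adgre1 and the 4 Y-linked genes looked for had no counts in any of the 5 libraries. Such bulk values cannot tell fewer cells of a type from less RNA per cell.

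Between the sub-series, 4166 of 16394 genes tested (25.4%) were called different by edgeR's quasi-likelihood test, with an adjusted p (Benjamini-Hochberg) under 0.05. In the second series 1955 genes (11.9%) were called higher and 2211 (13.5%) lower. Of those called, 1387 changed at least 2-fold, 304 of them higher and 1083 lower. With no test, 9472 genes (57.8%) had all second-series levels on one side of all first-series levels. To give the scale, a fit of all 11 libraries called 4651 of 18736 genes (24.8%) between the sub-series, against 12017 (64.1%) between YAP-5SA and YAP-S127A. The median size of the log2 difference there was 0.37 between the sub-series and 0.70 between the YAP mutants. In that fit the split was 1973 higher and 2678 lower with TMM factors, and 2591 higher and 2314 lower with RLE factors. No gene with at least 1 CPM in each library of one sub-series was without counts in the other.

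These calls depend strongly on which libraries are in the fit. Without second-series library 1, edgeR called 0 genes, although 3521 had an unadjusted p under 0.05, DESeq2 called 1378 and limma-voom called 263. Without second-series library 2, 436 genes were called by edgeR. Without first-series library 2 there were 2564 calls, and without first-series library 3 there were 9673. When the closest pair in each sub-series was summed to count as 1 library, 304 genes were called. Every gene called below loses its call by edgeR when second-series library 1 is left out.

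**Figure D1:**
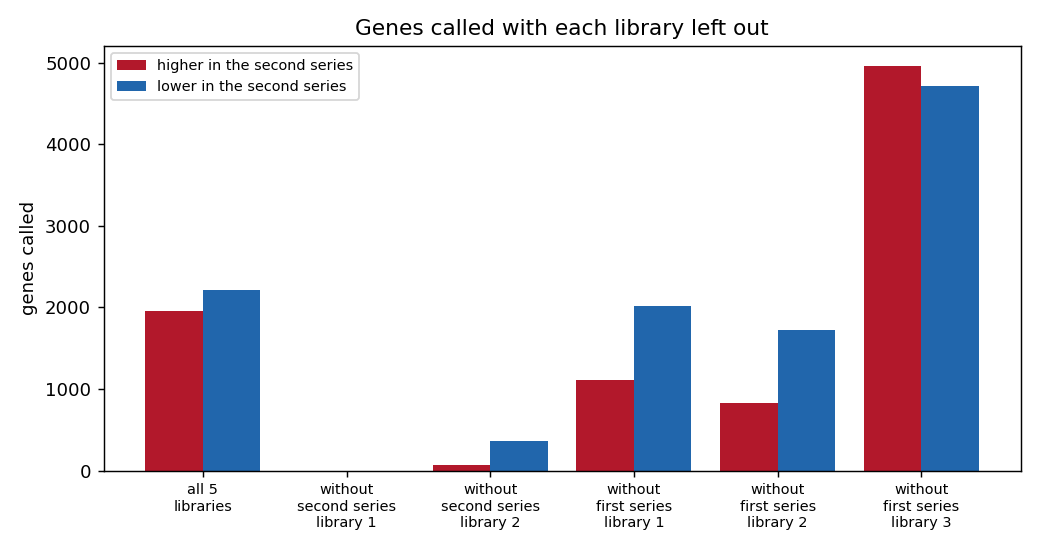
Number of genes called higher and lower in the second ID series, with all 5 TAZ-S89A libraries and with each left out in turn (edgeR, adjusted p under 0.05). Calls run from 0 without second-series library 1 to 9673 without first-series library 3.

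The difference between the sub-series moved with gene length. Deciles here and below were formed over the 12773 genes with an average log2 CPM over 1. Counts of list members and pseudogenes cover all genes tested, low levels included, so their shares and those of the deciles are not fully alike. Over the 1278 genes of the shortest decile by gene model length (57 to 1429 bases), the median log2 fold change was -0.68 and 52.0% were called lower. Over the longest decile, from 9830 bases, the median was 0.25 and 1.72% were called lower. Medians by decile of GC content, known for 11248 of 12773 such genes, stayed between -0.10 and 0.10. The share called lower went from 23.7% in the lowest GC decile to 8.98% in the highest. A fit with a length offset, which removes the trend from each library, called 2259 genes higher (13.8%) and 1952 lower (11.9%), and 2892 of its calls were also calls without the offset. This alternative was added after the trend was seen. With it, the median by GC decile was -0.17 in the lowest decile and 0.06 in the highest. What lies behind the trend was not tested, and counts of list members are given for both fits where they differ.

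**Figure D2:**
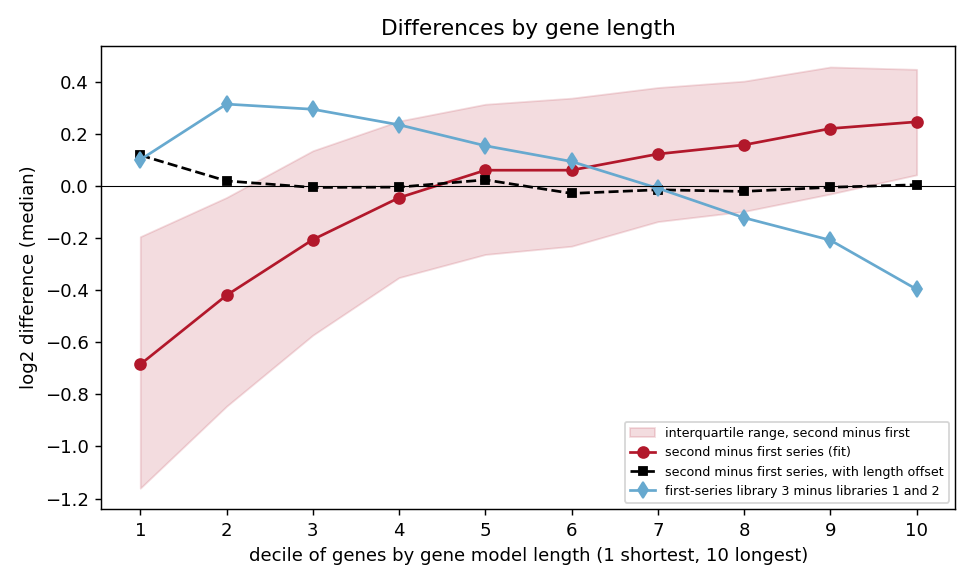
Median log2 difference (y axis) by decile of gene model length (x axis), over the 12773 genes with an average log2 CPM over 1. Lines are given for second minus first ID series in both fits and for first-series library 3 minus libraries 1 and 2. The shaded band is the interquartile range, the fitted median climbs to 0.25 in the longest decile, and library 3 falls to -0.40 there.

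Short housekeeping genes were mostly lower in the second series. Of 79 cytosolic ribosomal protein genes tested, 64 fell, with a median log2 fold change of -0.99, and with the length offset 36 fell and 7 rose. Among 73 nuclear genes of the respiratory chain, 57 fell (median -1.21), and with the offset 33 fell and 4 rose. For comparison, 426 of 792 other protein-coding genes with models under 1500 bases fell and 18 rose, and with the offset 21.0% fell and 16.04% rose. Rps7, a small-subunit protein, had 99.4 and 107 CPM in the second series, against 452, 427 and 491 CPM in the first (log2 fold change -2.15 ± 0.15 SE, adjusted p = 0.00119). Its groups lay far apart, and the value was -1.49 with the offset. Of 157 pseudogenes, with a median model length of 1076 bases, 81 were called lower, near the 52.0% of genes in the shortest decile. With the offset 45 pseudogenes fell and 14 rose. Since the deposited counts hold uniquely aligned reads, ribosomal protein genes with near-identical pseudogenes are uncertain.

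Genes of the S100 family, small calcium-binding proteins found in motile cells among others, were lower in the second series in both fits. All 13 symbols had an ID, 10 were tested, and 9 fell both with and without the offset (median -1.73, and -0.99 with the offset). Their median model length was 946.5 bases, and in the shortest decile 52.0% of genes were called lower. With the offset 11.9% of all genes were called lower. S100a4, which binds non-muscle myosin, had 1043 and 1136 CPM in the second series, against 4222, 4180 and 3673 CPM in the first. The groups lay far apart (log2 fold change -1.89 ± 0.18 SE, adjusted p = 0.00148), and with the offset the log2 fold change was -1.01. S100a6 was the most abundant member, with 3071 and 3286 CPM in the second series and 10458, 10880 and 11707 CPM in the first. S100a10, the annexin partner, and S100a1, found in muscle, fell too, with log2 fold changes of -1.45 and -1.77. S100a1 and S100a13 overlap each other, and with the strand setting not given their reads cannot be fully told apart. Summed over the list, the level was 5314 and 5744 CPM in the second series, against 17984, 18632 and 18639 CPM in the first.

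Of 22 YAP/TAZ-TEAD targets tested, 7 rose, with a list median of 0.27 against -0.01 over all genes tested. Over all genes 11.9% were called higher. The list has a median model length of 5748 bases, and in the decile of that length 20.2% of genes were called higher, with a median of 0.12. With the length offset 9 rose and 1 fell, beside 13.8% higher and 11.9% lower over all genes. Without first-series library 3, 14 rose and 3 fell. Library 3 was singled out from its values, and the fit without it called 9673 of 15970 genes (4957 higher, 4716 lower). A call in that fit is thus not particular to these targets. Ccn2 (chr10:24595442-24598683), a matricellular factor, had 361 and 368 CPM in the second series, against 173, 160.2 and 228 CPM in the first. Its levels did not overlap (log2 fold change 0.96 ± 0.18 SE, adjusted p = 0.00952), and library 3 lay nearest to the second series. Foxf2, a forkhead factor of mesenchyme, had 22.5 and 23.4 CPM in the second series, against 10.4, 9.91 and 10.1 CPM in the first. The first-series libraries sat close together (log2 fold change 1.18 ± 0.11 SE, adjusted p = 0.00148). Crim1, a membrane protein that binds BMPs, had 127.5 and 121 CPM in the second series, against 74.7, 67 and 71.4 CPM in the first (log2 fold change 0.81 ± 0.12 SE, adjusted p = 0.00389), and its model overlaps that of Fez2. The other calls were Asap1, Dock5, F3 and Myof, of which Myof lost its call with the offset (log2 fold change 0.32, adjusted p = 0.0627 with the offset). Ccn1 had 337 and 341 CPM in the second series, against 227, 210.1 and 278 CPM in the first, a difference that did not pass the threshold (log2 fold change 0.51 ± 0.16 SE, adjusted p = 0.0582) but did with the offset (log2 fold change 0.66, adjusted p = 0.00507 with the offset) and without first-series library 3 (adjusted p = 1.38e-07). Ankrd1, a nuclear ankyrin-repeat protein and common reporter of YAP activity, was level across the libraries, with 319.7 and 319 CPM in the second series, against 313, 309 and 315 CPM in the first (log2 fold change 0.03 ± 0.13 SE, adjusted p = 0.886). Amotl2, an angiomotin that binds YAP, gave log2 fold change -0.14 ± 0.14 SE, adjusted p = 0.509, and was the member that fell with the offset (log2 fold change -0.32, adjusted p = 0.049 with the offset).

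**Figure D3:**
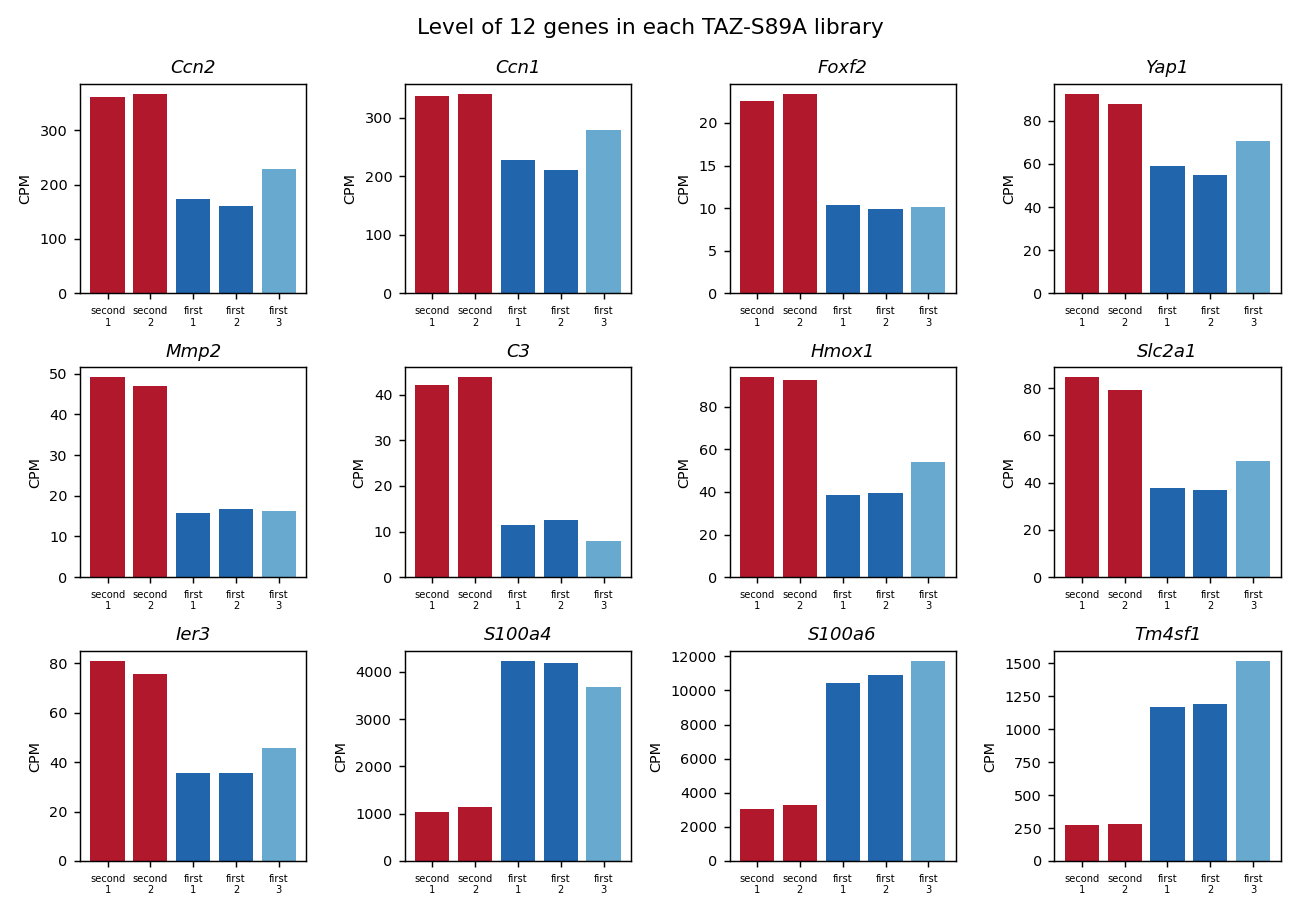
Level in CPM (y axis, from 0) of 12 genes in each TAZ-S89A library, second ID series in red and first ID series in blue with library 3 in light blue. S100a4, S100a6 and Tm4sf1 stand lower in both second-series libraries and the other 9 genes stand higher, with Ccn2 at 361 and 368 CPM in the second series and 173, 160.2 and 228 CPM in the first.

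Of 26 Hippo pathway components 25 were tested, and 5 rose: the kinases Stk3, Stk4 and Lats1, the scaffold Wwc2, and Yap1. The list holds long genes (median model length 6729 bases), and in the decile of that length 21.1% of genes were called higher. With the length offset 2 rose and 1 fell, beside 13.8% higher and 11.9% lower over all genes. Stk3, the upstream kinase MST2, had 30.3 and 32.1 CPM in the second series, against 15.5, 16.8 and 19.2 CPM in the first. This was the largest change of the list (log2 fold change 0.86 ± 0.13 SE, adjusted p = 0.00475). Yap1 had 92.6 and 87.7 CPM in the second series, against 59.2, 54.8 and 70.8 CPM in the first (log2 fold change 0.55 ± 0.14 SE, adjusted p = 0.0292), and with the offset its call was lost (log2 fold change 0.41, adjusted p = 0.0525 with the offset). Wwtr1, the gene of the mutated coactivator, had 108 and 103 CPM in the second series, against 74.01, 72.6 and 93 CPM in the first. The groups did not overlap but the difference was not called (log2 fold change 0.41 ± 0.15 SE, adjusted p = 0.0858), although it was without first-series library 3 (adjusted p = 5.48e-07). These counts do not separate the mutant transcript from the endogenous one. None of the 4 TEAD genes was called, with log2 fold changes between -0.17 for Tead3 and 0.32 for Tead1. Without first-series library 3, Tead1 (adjusted p = 0.0258), Tead2 (adjusted p = 0.0003) and Tead3 (adjusted p = 0.00868) were called. That fit called 9673 of 15970 genes, so its calls, with that of Wwtr1, are not particular to this list.

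Members of the immediate early, NRF2 and hypoxia lists that were called were all higher in the second series, in both fits. Over all genes 11.9% were called higher, and 13.8% with the offset. In the AP-1 and immediate early list, 12 of 24 rose, and 17 with the offset (median 0.60, and 0.56 with the offset). Ier3, an early response gene, had 80.9 and 75.8 CPM in the second series, against 35.8, 35.6 and 45.7 CPM in the first (log2 fold change 1.01 ± 0.15 SE, adjusted p = 0.00412). Dusp5, a phosphatase that acts on ERK, had 19.04 and 20.96 CPM in the second series, against 10.02, 10.5 and 10.1 CPM in the first (log2 fold change 0.97 ± 0.12 SE, adjusted p = 0.00234), and Fosl1, an AP-1 subunit, gave log2 fold change 0.82 ± 0.11 SE, adjusted p = 0.00328. Etv4 and Etv5, ETS factors induced by ERK signalling, also rose, by 0.84 and 1.53 on the log2 scale. Among 21 targets of NRF2, the regulator of the oxidative stress response, 9 rose, and 12 with the offset. Hmox1, haem oxygenase, had 93.7 and 92.6 CPM in the second series, against 38.4, 39.5 and 54.1 CPM in the first (log2 fold change 1.08 ± 0.17 SE, adjusted p = 0.00533). Slc7a11, the cystine transporter, had 13.6 and 12.4 CPM in the second series, against 2.98, 3.39 and 5.44 CPM in the first. Library 3 was the highest of the first series but below both second-series libraries (log2 fold change 1.73 ± 0.25 SE, adjusted p = 0.0042). Gstm1, a glutathione transferase, gave log2 fold change 0.84 ± 0.12 SE, adjusted p = 0.00373. Of 25 hypoxia and glycolysis genes 10 rose in each fit, among them the glucose transporter Slc2a1 with 84.6 and 79.3 CPM in the second series, against 37.6, 37.04 and 49.1 CPM in the first (log2 fold change 0.99 ± 0.15 SE, adjusted p = 0.00516) and the hexokinase Hk2 with log2 fold change 1.07 ± 0.15 SE, adjusted p = 0.00366. In the list of the unfolded protein response and amino acid stress, 7 of 23 rose and 2 fell, and with the offset 10 rose and 1 fell. Asns, asparagine synthetase, rose (log2 fold change 0.83 ± 0.22 SE, adjusted p = 0.0311), while the chaperone cofactor Sdf2l1 fell (log2 fold change -1.10 ± 0.25 SE, adjusted p = 0.0191), a call that was lost with the offset (log2 fold change -0.50, adjusted p = 0.0683 with the offset).

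**Figure D4:**
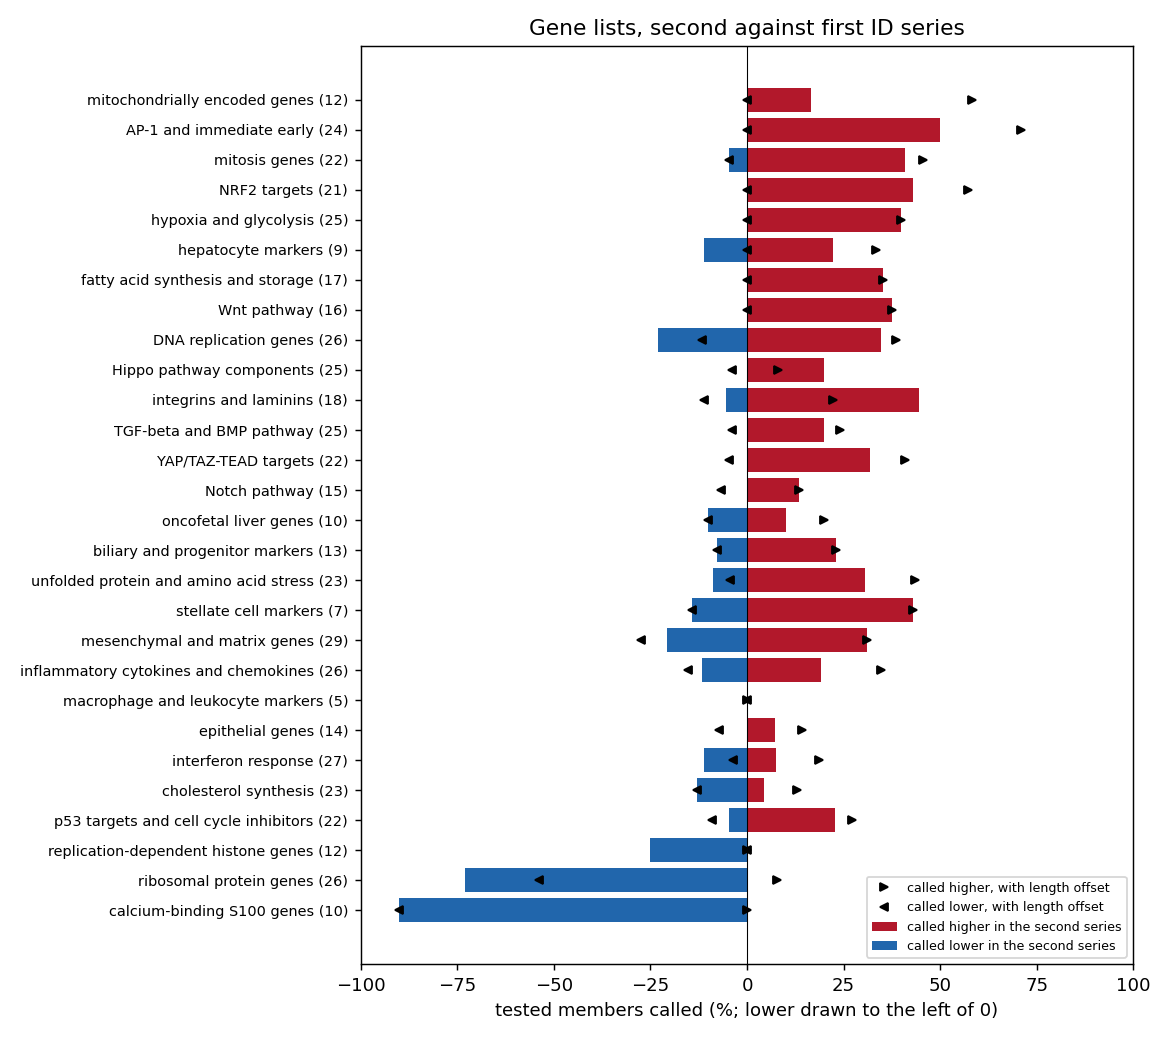
Share of tested members called higher (red, to the right) and lower (blue, to the left) in the second ID series for each gene list with at least 5 tested members, whose number is in brackets, ordered by median log2 fold change. Arrowheads give the same shares with the length offset: 17 of 24 AP-1 and immediate early genes were then called higher, and 9 of 10 S100 genes lower.

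Cell cycle genes did not move as 1 group. Of 26 DNA replication genes 9 rose and 6 fell, beside 11.9% higher and 13.5% lower over all genes (13.8% and 11.9% with the offset). The helicase subunits Mcm3, Mcm4 and Mcm6 were among those that rose, and Prim1, the small primase subunit, fell, with 106 and 113 CPM in the second series, against 242, 238 and 302 CPM in the first (log2 fold change -1.25 ± 0.16 SE, adjusted p = 0.00295). The sliding clamp Pcna also fell (log2 fold change -0.86 ± 0.14 SE, adjusted p = 0.00533). With the offset 10 rose and 3 fell. Among 22 mitosis genes 9 rose and 1 fell, and with the offset 10 rose and 1 fell. Bub1b, a spindle checkpoint kinase, had 144 and 146 CPM in the second series, against 77.4, 78.1 and 79.1 CPM in the first (log2 fold change 0.89 ± 0.11 SE, adjusted p = 0.00253). The one that fell was Cdk1, the mitotic kinase, with 277 and 288 CPM in the second series, against 414, 434 and 601 CPM in the first. Library 3 was the highest of the 5 (log2 fold change -0.77 ± 0.20 SE, adjusted p = 0.0297). Cdkn2a, a cell cycle inhibitor locus, fell, with 89.4 and 90.9 CPM in the second series, against 213, 190.1 and 371 CPM in the first, and there too library 3 lay well above the others (log2 fold change -1.52 ± 0.30 SE, adjusted p = 0.0116). Cdkn1a, the p21 inhibitor, rose (log2 fold change 0.95 ± 0.16 SE, adjusted p = 0.00602).

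Mesenchymal and matrix genes divided, with 9 of 29 called higher and 6 lower, and with the offset 9 and 8. The shares over all genes were 11.9% higher and 13.5% lower, and 13.8% and 11.9% with the offset. Mmp2, a gelatinase, had 49.1 and 46.98 CPM in the second series, against 15.8, 16.9 and 16.3 CPM in the first (log2 fold change 1.56 ± 0.11 SE, adjusted p = 0.00119). Snai2, a repressor of epithelial genes, rose (log2 fold change 1.22 ± 0.20 SE, adjusted p = 0.00658). Tagln, an actin-binding protein of contractile cells, had 26.1 and 22.2 CPM in the second series, against 109.8, 113 and 185 CPM in the first, with library 3 above all others (log2 fold change -2.49 ± 0.27 SE, adjusted p = 0.00181), and its model overlaps that of Pcsk7. In Acta2, smooth muscle actin, library 3 was again the highest, with 34.1 and 34.5 CPM in the second series, against 58.99, 53.3 and 107 CPM in the first (log2 fold change -1.09 ± 0.30 SE, adjusted p = 0.0375). Col6a1 and Col6a2, chains of collagen VI, and Col1a2 also fell, and for these library 3 was the lowest of the first series. Of 18 integrin and laminin genes 8 rose and 1 fell, and with the offset 4 rose and 2 fell. This list has a median model length of 7736.5 bases, and in the decile of that length 25.1% of genes were called higher. Itgav, the integrin alpha V chain, had 213 and 209 CPM in the second series, against 122, 116 and 103 CPM in the first (log2 fold change 0.89 ± 0.13 SE, adjusted p = 0.00412), and Itgb6, one of its partners, fell (log2 fold change -0.83 ± 0.12 SE, adjusted p = 0.00436). Of 16 Wnt pathway genes tested 6 rose, led by the transcription factor Lef1 with 6.97 and 6.71 CPM in the second series, against 1.79, 2.14 and 1.52 CPM in the first (log2 fold change 1.90 ± 0.19 SE, adjusted p = 0.00153). The Wnt list has a median model length of 6049.5 bases, and in the decile of that length 20.2% of genes were called higher.

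Genes of the cytokine and chemokine list, which also holds other inflammatory genes, went both ways, with 5 of 26 called higher and 3 lower, and with the offset 9 and 4. Over all genes 11.9% were called higher and 13.5% lower, and 13.8% and 11.9% with the offset. Ptgs2, the inducible cyclooxygenase, had 346 and 339 CPM in the second series, against 176, 169.7 and 195 CPM in the first (log2 fold change 0.93 ± 0.13 SE, adjusted p = 0.00388). Ccl7, a monocyte chemoattractant, had 43.9 and 45.3 CPM in the second series, against 119.7, 138 and 104 CPM in the first (log2 fold change -1.43 ± 0.16 SE, adjusted p = 0.00181), and its log2 fold change with the offset was -0.68. Spp1, osteopontin, was the most abundant of those called, with 1878 and 2026 CPM in the second series, against 3548, 3572 and 3843 CPM in the first (log2 fold change -0.90 ± 0.16 SE, adjusted p = 0.00809). In the interferon list 2 of 27 rose and 3 fell, and with the offset 5 rose and 1 fell. Isg15, a ubiquitin-like modifier, remained lower in both (log2 fold change -1.83 ± 0.23 SE, adjusted p = 0.00259; log2 fold change -1.04, adjusted p = 0.0146 with the offset). Fatty acid synthesis and storage genes rose in 6 of 17 cases, and cholesterol synthesis genes in 1 of 23, with 3 lower (3 higher and 3 lower with the offset). The fatty acid list has a median model length of 6241 bases, and in the decile of that length 21.1% of genes were called higher. Msmo1, a sterol oxidase, had 162 and 162 CPM in the second series, against 384, 372 and 541 CPM in the first (log2 fold change -1.42 ± 0.21 SE, adjusted p = 0.00413), while Fads2, a desaturase, gave log2 fold change 0.59 ± 0.12 SE, adjusted p = 0.0116. Afp, the fetal liver protein and a marker of liver tumours, fell (log2 fold change -0.73 ± 0.12 SE, adjusted p = 0.00664).

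The remaining cell type lists gave few calls. Of 14 epithelial genes tested 1 rose, the junction protein Tjp1 (log2 fold change 0.69 ± 0.13 SE, adjusted p = 0.011), and with the offset 2 rose and 1 fell. Members of this list ranged widely in level: Cdh1, the epithelial cadherin, stayed under 1 CPM in every library, while the keratin Krt18 had 473 and 477 CPM in the second series, against 348, 360.4 and 624 CPM in the first. Among 13 biliary and progenitor markers 3 rose, among them the duct factor Sox9 (log2 fold change 0.59 ± 0.13 SE, adjusted p = 0.0195), and 1 fell. With the offset 3 rose and 1 fell, but those that rose were not all the same. Itga6 and Cd44 were called higher only without it (adjusted p = 0.0506 and 0.143 with the offset). Of 7 stellate cell markers tested 3 rose, led by Dcn, a matrix proteoglycan at low levels (0.963 and 1.41 CPM in the second series, against 0.278, 0.144 and 0.435 CPM in the first), and 1, Acta2, fell. Of 9 hepatocyte markers tested 2 rose, Rbp4 and Cebpa, and 1 fell, and with the offset 3 rose. Among 3 endothelial, 5 macrophage and leukocyte and 1 erythroid marker tested no call was made, but with the offset the endothelial receptor Flt1 was called lower (log2 fold change -0.60, adjusted p = 0.0361 with the offset). The summed macrophage and leukocyte level was 32.6 and 33.0 CPM in the second series and between 31.8 and 40.5 CPM in the first, with Adgre1, Tyrobp and Clec4f at 0. The TGF-beta and BMP list had 5 of 25 genes higher, the Notch list 2 of 15, and the p53 list 5 of 22 with 1 lower, beside 11.9% higher and 13.5% lower over all genes. With the offset these lists had 6 higher and 1 lower, 2 higher and 1 lower, and 6 higher and 2 lower. The median model length was 5914 bases for the TGF-beta and BMP list and 6733 bases for the Notch list. In the deciles of those lengths 20.2% and 21.1% of genes were called higher without the offset. Of 12 replication-dependent histone genes 3 fell, none of them with the offset. Their median model length was 916 bases, and in the shortest decile 52.0% of genes were called lower without the offset.

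The genes with the largest changes, at an average log2 CPM of at least 2, were as follows. Arhgap36 had 13.9 and 14.3 CPM in the second series, against 2.88, 2.45 and 3.2 CPM in the first and led the higher side (log2 fold change 2.31 ± 0.16 SE, adjusted p = 0.00119). Next were Serpine2, a protease inhibitor, with 12.1 and 13.3 CPM in the second series, against 2.93, 2.21 and 3.95 CPM in the first (log2 fold change 2.07 ± 0.23 SE, adjusted p = 0.00194), and the complement component C3 with 42.2 and 43.8 CPM in the second series, against 11.3, 12.5 and 7.89 CPM in the first (log2 fold change 2.02 ± 0.19 SE, adjusted p = 0.00148). Library 3 had the lowest C3 level of the 5. The others of the 12 were Mir7654, Pcdh7, Slc7a11, Ddr2, Slco4a1, Mmp2, Pde3b, Padi2 and Dpysl3, with log2 fold changes of at most 1.80. Mir7654 lies within Arglu1, so its reads are uncertain. On the lower side the pseudogene Chchd2-ps came first (log2 fold change -4.05 ± 0.28 SE, adjusted p = 0.00119). It had only 0.413 and 0.422 CPM in the second series, against 6.26, 6.33 and 8.39 CPM in the first. Its model overlaps that of Gm13201, so its reads are uncertain. Tm4sf1, a tetraspanin-like surface protein, had 269.6 and 282 CPM in the second series, against 1172, 1191 and 1515 CPM in the first. It was abundant in the first series and its groups were far apart (log2 fold change -2.23 ± 0.19 SE, adjusted p = 0.00134). Kif12, a kinesin, had 3.81 and 3.66 CPM in the second series, against 19.01, 17.8 and 13.2 CPM in the first (log2 fold change -2.16 ± 0.21 SE, adjusted p = 0.00148). Serpinb2, an intracellular protease inhibitor, gave log2 fold change -2.24 ± 0.24 SE, adjusted p = 0.00171, and Serpinb1a gave log2 fold change -2.25 ± 0.30 SE, adjusted p = 0.0031. Serpina7, Tagln, S100g, Sugct, Rpl36-ps12, Rmrp and Rps7 completed the 12.

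Library 3 of the first series stood apart from libraries 1 and 2. The median size of the log2 CPM difference from libraries 1 and 2 was 0.335 for the second series and 0.323 for library 3, while libraries 1 and 2 differed from each other by 0.0743. Larger differences were fewer in library 3: it differed over 2-fold from libraries 1 and 2 in 885 and 839 of 15794 genes, against 1514 to 1775 genes for the second-series libraries. Depth was not matched here, and the second series had the lower total counts. Its libraries differed over 2-fold from each other in 337 genes, and libraries 1 and 2 in 140. Library 3 was singled out from its values, so what follows is a description with no test. Of 16394 genes, 78 (0.476%) stood at least 2-fold above both others and 329 (2.01%) at least 2-fold below. Among 10596 genes with a proper symbol and a mean log2 CPM of at least 2 in the first series, 43 stood above and 5 below. Among the genes above were Cct3, a subunit of the cytosolic chaperonin, with 1432 CPM in library 3, against 574 and 615 CPM in libraries 1 and 2, and Ldha, lactate dehydrogenase, with 734 CPM in library 3, against 297 and 319 CPM in libraries 1 and 2. The keratin Krt8 had 10.04 CPM in library 3, against 4.22 and 4.04 CPM in libraries 1 and 2, and in it the second series had 9.04 and 9.85 CPM. Below were Xist, the RNA that coats the inactive X chromosome, with 2547 CPM in library 3, against 5420 and 5182 CPM in libraries 1 and 2, and Zan with 11.9 CPM in library 3, against 25.3 and 25.2 CPM in libraries 1 and 2. Xist and Zan have long models, of 23860 and 22001 bases, and library 3 had a median of -0.40 in the longest decile. Mitochondrially encoded transcripts summed to 40955 and 42617 CPM in the second series and to 37496, 34534 and 21684 CPM in first-series libraries 1, 2 and 3. Of their 12 tested genes 11 were lower in library 3 than in libraries 1 and 2, beside 7533 of all 16394 genes tested (45.9%). In the second series 2 were called higher, or 7 with the length offset, beside 11.9% and 13.8% over all genes. Both calls without the offset were on low-level genes. ATP8, which overlaps ATP6, had 0.413 and 0.422 CPM in the second series, and COX2 had 2.66 and 2.44 CPM.

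For 972 genes at least 2-fold apart between the second series and libraries 1 and 2, library 3 was nearer to the second series in 56 (5.76%) and on the far side of libraries 1 and 2 in 504 (51.9%). These genes were chosen for that gap, so few would be nearer to the second series by chance. The gap was measured from libraries 1 and 2, and the share of a like library expected on the far side is not known. The shares thus do not show where library 3 belongs. Of the 329 genes at least 2-fold below in library 3, 274 were also lower in the second series than in libraries 1 and 2. Of the 78 at least 2-fold above, 51 were also higher in the second series. Both sets were chosen by their levels in libraries 1 and 2, which favours a shared direction, so these counts do not show where library 3 belongs. The differences of library 3 also moved with gene length, from a median of 0.32 in the second decile to -0.40 in the longest. The stress list of the unfolded protein response had a median of 0.63 in library 3 against libraries 1 and 2, and 19 of its 23 genes were above both, beside 7167 of all 16394 genes tested (43.7%). Other lists gave like counts, such as 19 of 21 NRF2 targets and 22 of 26 DNA replication genes. The mitochondrial list had a median of -0.78, and the median over all genes was -0.02. What sets library 3 apart was not tested.

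**Figure D5:**
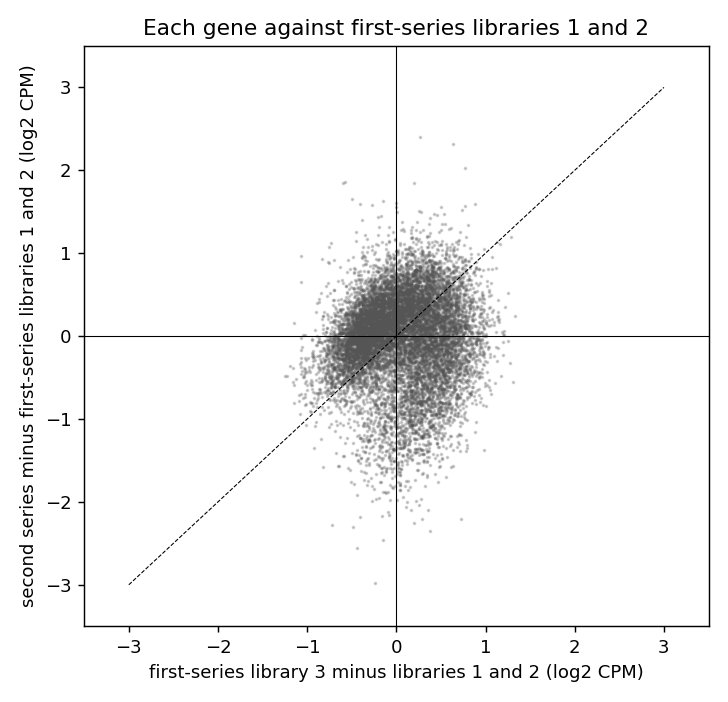
Log2 CPM difference from the mean of first-series libraries 1 and 2 for the second ID series (y axis) and for first-series library 3 (x axis), 1 point for each of 12139 genes with at least 2 CPM in every library. The dashed line marks equal differences. Of 775 genes at least 2-fold lower in the second series than in libraries 1 and 2, library 3 lay on the far side, above both their mean and the second series, in 447 (57.7%), and of 197 genes at least 2-fold higher it lay on the far side in 57 (28.9%).

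By chromosome, median log2 fold changes of the second against the first series were between -0.08 on chromosomes 12 and 13 and 0.17 on chromosome 18 for the autosomes, and 0.02 on X. The mitochondrial genome had a median of 0.66 over 23 genes, and of 0.41 without first-series library 3.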

How the data were processed

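PolyA RNA libraries of the TAZ-S89A lines were taken as 2 of the second and 3 of the first sample ID series, and replicates were numbered in accession order, which pairs none. The deposited count column holds, per the file headers, reads aligned uniquely to each Entrez gene model. Reads were aligned with GSNAP to GRCm38, per the submitters' processing notes; for the versions, the counter and strandedness, the sources used here say nothing. The deposited nRPKM, an RPKM that the authors divided by a size factor per library, served only to derive gene model length. Of 36528 gene IDs 31045 matched a RefSeq symbol (GRCm38.p6).

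Counts were tested with edgeR 4.0.16 in R 4.3.3: filterByExpr, TMM factors, robust quasi-likelihood fit, Benjamini-Hochberg adjustment. CPM are TMM-scaled and SE are of the log2 fold change. Counts of genes over 2-fold apart between single libraries used CPM scaled to total counts only. DESeq2 1.42.0 and limma 3.58.1 were alternatives. The length offset is a smooth trend per library on log2 model length. The fit was checked on simulated counts. Total counts between 20071144 and 42294516 set the precision. Named genes were a fixed set of 10, the 12 highest and 12 lowest called with a proper symbol, separate sub-series levels and a mean log2 CPM of 2 or more, up to 4 called members of each list, and for library 3 the 10 with the largest and the 10 with the smallest difference. Others were named after their values were seen. The division of the libraries, the 32 gene lists with 646 entries and the rules were chosen with earlier results of these data known. Of the listed genes 533 were tested. A search for a C/EBP-type motif was dropped, since its letters had been read off 1 promoter.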

Additional observations from a re-analysis of the deposited data

How the results depend on the processing

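No paired analysis was possible because the replicate numbers follow accession order and pair no libraries. The 4166 calls (1955 higher, 2211 lower) kept within 1.5 times under RLE and upper-quartile factors, DESeq2, limma-voom, both filters, thinning, the 11-library fit and the length offset. Asking for at least 2-fold left 1387 (304 higher, 1083 lower), and summing the closest pairs left 304 (66 higher, 238 lower). Leaving out each library in turn gave 0 to 9673 calls, with 0 to 4957 higher and 0 to 4716 lower. The lowest values came without second-series library 1, and the highest without first-series library 3. Without first-series library 1, 1110 were higher, and without first-series library 2, 834. The length offset without first-series library 3 gave 9698 (4920 higher, 4778 lower), and models of at least 3000 bases gave 1649 (874 higher, 775 lower). For library 3, 130 genes were at least 2-fold above with RLE factors, and 37 above and 520 below with the length offset. Among 124 named genes tested, 116 lost the call without second-series library 1, 80 without second-series library 2, 85 with summed pairs and 13 with the length offset. One sign turned: Ankrd1, not called, at -0.036 in the 11-library fit. YAP-5SA against YAP-S127A gave 12000 calls with RLE factors. The cause of these shifts was not tested. With 2 against 3 libraries, and a lone library assumed to vary like the others when its partner is left out, the number of libraries limits the precision.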
